A study of Mus musculus with 12 samples.

Results

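The hippocampus of mice that carried the aDN-DISC1 mutation and received delta-9-tetrahydrocannabinol (THC, the compound that gives cannabis its psychoactive effect) was compared with that of control mice given vehicle, the group that had neither the mutation nor the drug. The 6 libraries compared were 3 of mutant THC and 3 of control vehicle, of 12 in the series, taken by genotype and treatment in their titles, and 15802 genes were tested. The other 6 libraries, 3 of control THC and 3 of mutant vehicle, each carry 1 of the 2 factors and are given beside the named genes. All 12 came from mice on a C57BL/6 background and were made from hippocampal total RNA after ribosomal RNA removal. The series title places THC exposure in adolescence and the memory outcome in adulthood, and calls the genetic vulnerability astrocyte-specific. The labels do not give the dose, the age or sex of the mice, the promoter that drives the mutation or whether 1 founder line was used. The control mice have no genotype entry and were placed by their titles. Since no label says that the 3 libraries of a group came from separate mice, the p-values cover only how far these libraries spread, and that spread may be technical.

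DISC1 is a scaffold protein whose gene is linked to psychiatric illness, and in astrocytes it binds serine racemase, the enzyme that makes D-serine, a co-agonist of NMDA receptors. THC acts on the CB1 cannabinoid receptor, which is abundant on hippocampal nerve terminals and is also present on astrocytes. The title names NF-kB, a transcription factor of inflammation, and COX-2, the enzyme encoded by Ptgs2 that starts prostaglandin synthesis. The comparison asks how far the hippocampal transcriptome of mice with both factors differs from that of mice with neither, without separating the part of each.

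Markers of tissue next to the hippocampus stood apart in 2 of the 3 mutant THC libraries, so the main gene groups are also given without 1 or both of them. Levels are in CPM, counts scaled to a total of 1e+06 per library with a correction between libraries. The 20 choroid plexus genes, which mark the epithelium that makes cerebrospinal fluid, summed to 428, 369 and 457 CPM in control vehicle 1 to 3. They summed to 10903, 384 and 5172 CPM in mutant THC 1 to 3, so mutant THC 2 alone lay within the control range. The 21 tested genes of striatal medium spiny neurons were high in 1 library only among these 6: their list summed to 446, 465 and 469 CPM in control vehicle and to 445, 495 and 6205 CPM in mutant THC 1 to 3. Ttr, the transthyretin gene of the choroid plexus, was at 53.4, 20.1 and 84.4 CPM in control vehicle, whereas mutant THC 1 to 3 held 5969, 34.0 and 2857 CPM. Drd2, the D2 dopamine receptor gene of striatal neurons, was at 52.1 CPM in mutant THC 3, whereas mutant THC 1 and 2 had 0.571 and 1.62 CPM. None of the 20 choroid plexus genes was at 0 in any of the 6 libraries. High levels were also found in the groups that carry 1 factor. Choroid plexus genes summed to 6319, 10608 and 17389 CPM in mutant vehicle 1 to 3 and to 404, 9209 and 397 CPM in control THC 1 to 3. The striatal list summed to 443, 477 and 930 CPM in mutant vehicle 1 to 3. The part these tissues play in the differences below was not tested beyond leaving those libraries out and fitting a score of either list (the mean log2 CPM of its genes), or both scores, as covariates.

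**Figure D1:**
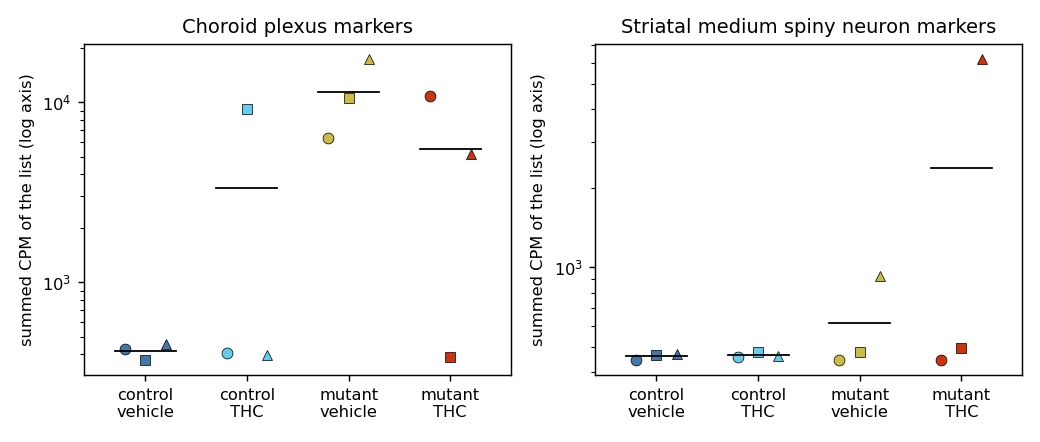
Summed CPM (log axis) of the choroid plexus list and of the striatal medium spiny neuron list in each of the 12 libraries by group; each point is a library, with circle, square and triangle for replicates 1, 2 and 3, and the bar is the group mean. Mutant THC 1 and 3 lie at 10903 and 5172 CPM in the choroid plexus list and mutant THC 3 at 6205 CPM in the striatal list, while mutant THC 2 lies beside control vehicle in both. Mutant vehicle 1 to 3 (6319 to 17389 CPM) and control THC 2 (9209 CPM) are also high in the choroid plexus list.

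The tissue itself was present in all 6 libraries. Genes of CA1 pyramidal neurons summed to 1303, 1168 and 1372 CPM in control vehicle 1 to 3 and to 1210, 1122 and 829 CPM in mutant THC 1 to 3. Genes of dentate granule cells summed to 531, 653 and 493 CPM and to 453, 745 and 366 CPM in the same order. Both lists were lowest in mutant THC 3. In bulk tissue, fewer cells of a type and less RNA per cell cannot be told apart. The 6 libraries held 33165903 to 39113364 expected counts each.

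One gene passed the threshold, an adjusted p under 0.05 by edgeR's quasi-likelihood test with Benjamini-Hochberg adjustment over all 15802 genes: Prm1, which encodes protamine 1, a protein that packs DNA in sperm. It lies on chromosome 16 from 10796332 to 10796823 in the GRCm38.p6 assembly. Control vehicle 1 to 3 held 0, 0 and 1 counts of Prm1, and mutant THC 1 to 3 held 102, 35 and 73. The control THC libraries held 1, 0 and 0 counts and the mutant vehicle libraries 111, 87 and 61. All 6 mutant libraries were thus above all 6 control libraries, and mutant THC overlapped mutant vehicle. The ratio of mutant THC to control vehicle was 223.1 from 210 counts against 1, with an exact 95% counting interval of 39.61 to 8853. Over all mutant against all control libraries it was 240.1, from 469 counts against 2 (interval 66.11 to 1989), and these intervals cover counting error only.

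The fitted log2 fold change of Prm1 was 7.35 ± 0.79 (SE, edgeR adjusted p = 0.0244), a size that depends on the prior count because control vehicle held 1 count. Prm1 was also the only gene past the threshold for mutant vehicle against control vehicle (7.55 ± 0.78, edgeR adjusted p = 0.0171) and for mutant THC against control THC (7.34, edgeR adjusted p = 0.025), comparisons that share libraries with this one. In the mutant mice, THC against vehicle gave -0.20 for this gene. The fold was 6.91 to 9.21 on the log2 scale when each of the 12 libraries was left out in turn, but the adjusted p crossed the threshold in 9 of those fits. It was 0.165, 0.321 and 0.409 without control vehicle 1, 2 and 3, and 0.107, 0.0574 and 0.0593 without control THC 1, 2 and 3. It was 0.0557 and 0.0854 without mutant vehicle 1 and 2, and 0.0714 without mutant THC 3. Prm1 kept its place past the threshold without mutant vehicle 3, mutant THC 1 or mutant THC 2 (edgeR adjusted p = 0.0495, 0.0495 and 0.00627).

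Disc1 itself, on chromosome 8 from 125048767 to 125265143, was at 1.79, 2.58 and 2.40 CPM in control vehicle and 2.28, 3.04 and 1.42 CPM in mutant THC. The groups overlapped, and the log2 fold change was -0.01 ± 0.24 (SE, edgeR adjusted p = 0.99). Mouse Disc1 counts therefore did not separate the genotypes here, whereas the Prm1 counts did.

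**Figure D2:**
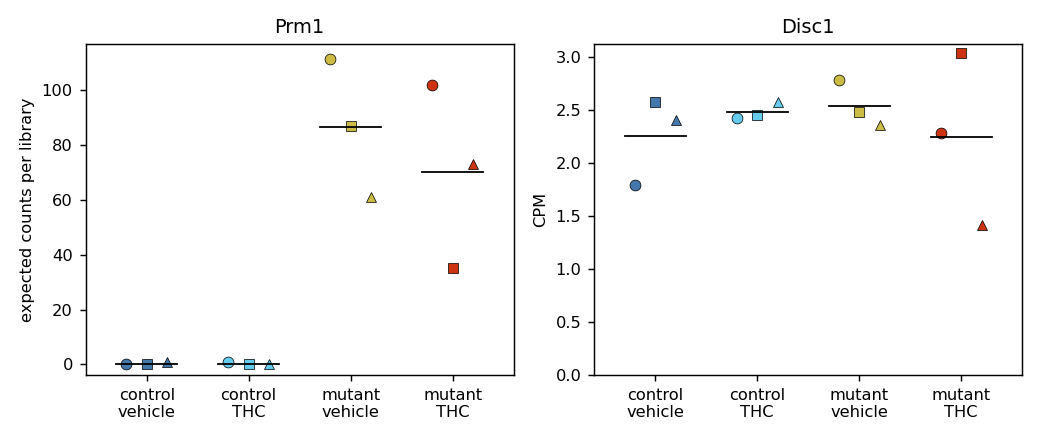
Expected counts of Prm1 (left) and CPM of Disc1 (right) in the 12 libraries by group; each point is a library and the bar is the group mean. Prm1 lies at 0 or 1 count in the control libraries and at 35 to 111 counts in the mutant libraries, while Disc1 overlaps between the groups.

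Prm1 made up 0.00633% of the genes tested, with 1 gene higher and 0 lower past the threshold. At an unadjusted p under 0.05, 1127 genes were higher (7.13%) and 1106 lower (7.0%), or 14.1% together. All 3 mutant THC libraries lay above all 3 control vehicle libraries for 1357 genes (8.59%) and below them for 1412 (8.94%), or 17.5% together. The median log2 fold change over all genes was 0.01. DESeq2 called 158 genes, 43 higher and 115 lower, without Prm1, for which it gave no adjusted p, while limma-voom called 0. The genes below other than Prm1 did not pass edgeR's threshold, and their values are given as measured levels. For reference, the interaction of mutation and THC called 0 genes by edgeR, with 342 higher and 699 lower at an unadjusted p under 0.05.

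The 11 higher genes besides Prm1 with the smallest p-values were above control vehicle in all 3 mutant THC libraries, by 0.28 to 0.66 on the log2 scale (edgeR adjusted p = 0.286 to 0.301). Ddit4, which encodes a protein that holds back mTOR signalling and whose gene stress and glucocorticoids induce, was at 42.6, 34.5 and 35.2 CPM in control vehicle against 54.0, 51.6 and 57.5 CPM in mutant THC (log2 fold change 0.54 ± 0.08, SE). Its mutant THC values were close together and above every control vehicle value. Control THC was at 56, 52.6 and 57.1 CPM and mutant vehicle at 49.1, 46.5 and 52.0 CPM, so either factor alone came with similar levels. Acsf2, an acyl-CoA synthetase gene, was at 6.11, 6.12 and 6.07 CPM in control vehicle and 10.4, 9.10 and 8.75 CPM in mutant THC (0.63 ± 0.10). Control THC had 7.94 to 9.98 CPM of Acsf2 and mutant vehicle 8.51 to 9.16 CPM, again within or near the range of mutant THC. Control vehicle was the 1 group that stood apart for these 2 genes.

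H1f2, a linker histone gene, and Srd5a3, whose enzyme makes dolichol for protein glycosylation, showed another order. H1f2 was at 68.9, 64.0 and 61.2 CPM in control vehicle and 98.6, 85.2 and 122 CPM in mutant THC (0.66 ± 0.11), with 73.4 to 82.3 CPM in control THC and 79.5 to 88.9 CPM in mutant vehicle. Srd5a3 was at 9.29, 8.84 and 9.07 CPM in control vehicle and 11.7, 11.9 and 13.9 CPM in mutant THC (0.46 ± 0.08). Its control THC values, 10.1 to 10.9 CPM, and mutant vehicle values, 10.4 to 10.8 CPM, lay between those groups without overlapping either. For Srd5a3 the log2 fold change was 0.22 for THC alone and 0.23 for the mutation alone, and the interaction was 0.005 ± 0.11 (SE, edgeR adjusted p = 0.997). Histone genes have near-identical copies among which reads are shared by estimate, so the H1f2 level is uncertain.

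Of the other higher genes, Rabl3, a small GTPase gene, was at 6.29, 6.80 and 6.69 CPM in control vehicle and 8.32, 8.56 and 9.45 CPM in mutant THC (0.41 ± 0.08), and THC alone left it at 6.36 to 6.41 CPM. Cnot6, a subunit of the CCR4-NOT complex that shortens mRNA tails, was at 19.9 to 21.7 CPM in control vehicle and 25.7 to 31.3 CPM in mutant THC (0.43 ± 0.09). Pvr, which encodes the poliovirus receptor CD155, a cell adhesion protein, was at 4.95 to 5.16 CPM and 6.69 to 7.51 CPM (0.48 ± 0.10). Zmpste24, the protease that processes prelamin A, was at 33.3 to 33.7 CPM and 38.2 to 43.0 CPM (0.28 ± 0.06), and Pphln1, whose product takes part in gene silencing, had the log2 fold change 0.29 ± 0.06. In mutant vehicle Zmpste24 was at 40.1 to 45.8 CPM, overlapping mutant THC. The remaining 2 of the 11, Pdia3 and Calr, belong to the chaperone group described further on.

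The 12 lower genes with the smallest p-values lay below control vehicle in all 3 mutant THC libraries, by 0.28 to 0.81 on the log2 scale (edgeR adjusted p = 0.286 to 0.301), and several act at synapses and axons. Nptxr, on chromosome 15 from 79786351 to 79804709, encodes the neuronal pentraxin receptor, a membrane protein that helps to gather AMPA receptors at excitatory synapses. It was at 198, 206 and 204 CPM in control vehicle against 110, 134 and 104 CPM in mutant THC, a log2 fold change of -0.81 ± 0.14 (SE). Control THC stood above control vehicle at 227, 240 and 217 CPM, and mutant vehicle ran from 135 to 208 CPM. The combination was the lowest of the 4 groups in all 3 libraries, though mutant vehicle 3 at 135 CPM was next to mutant THC 2 at 134 CPM. The interaction was -0.755 ± 0.194 (SE, edgeR adjusted p = 0.586), so the lower level with both factors did not pass as a departure from the sum of the 2 single effects.

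Caskin1, a scaffold protein gene of the presynaptic CASK complex, was at 66.1, 73.7 and 73.8 CPM in control vehicle and 50.4, 54.3 and 46.3 CPM in mutant THC (-0.50 ± 0.09). Its control THC libraries had 55.7 to 63.8 CPM and mutant vehicle 51.4 to 61.5 CPM, all below control vehicle, and mutant vehicle overlapped mutant THC. Scube1, a secreted and cell-surface protein gene, was at 12.4, 14.7 and 15.3 CPM and at 10.5, 8.95 and 7.56 CPM (-0.65 ± 0.13). Plxna3, a plexin gene whose receptor reads semaphorin signals that guide axons, was at 18.5 to 22.4 CPM and 13.2 to 15.4 CPM (-0.45 ± 0.09). Rap1gap2, a gene for a GTPase activating protein of Rap, was at 233 to 268 CPM and 162 to 203 CPM (-0.43 ± 0.09). Kndc1, a guanine exchange factor gene that acts on dendrites, was at 114 to 126 CPM and 82.4 to 102 CPM (-0.36 ± 0.07). No library of one group reached the range of the other for any of these genes.

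Others of the 12 act in mitochondria and protein turnover. Miga2, which promotes mitochondrial fusion, was at 71.7, 77.6 and 72.4 CPM in control vehicle and 57.7, 57.5 and 51.4 CPM in mutant THC (-0.41 ± 0.07). Slc25a29, a mitochondrial carrier of basic amino acids, was at 13.5, 14.2 and 14.2 CPM and at 9.70, 11.7 and 9.73 CPM (-0.42 ± 0.08), while control THC had 13.4 to 13.6 CPM and mutant vehicle 12.2 to 13.0 CPM. Mutant THC was therefore below every library of the other groups for Slc25a29. The ubiquitin ligase gene Hectd3 and the ubiquitin-conjugating gene Ube2o had log2 fold changes of -0.28 ± 0.06 and -0.32 ± 0.07, Cc2d1a, a regulator of transcription and signalling, -0.32 ± 0.07, and Rusc2 -0.38 ± 0.08. Cc2d1a was at 26.8 to 27.7 CPM in control vehicle, with 23.4 to 24.6 CPM in control THC, 20.6 to 24.1 CPM in mutant vehicle and 20.9 to 22.9 CPM in mutant THC.

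**Figure D3:**
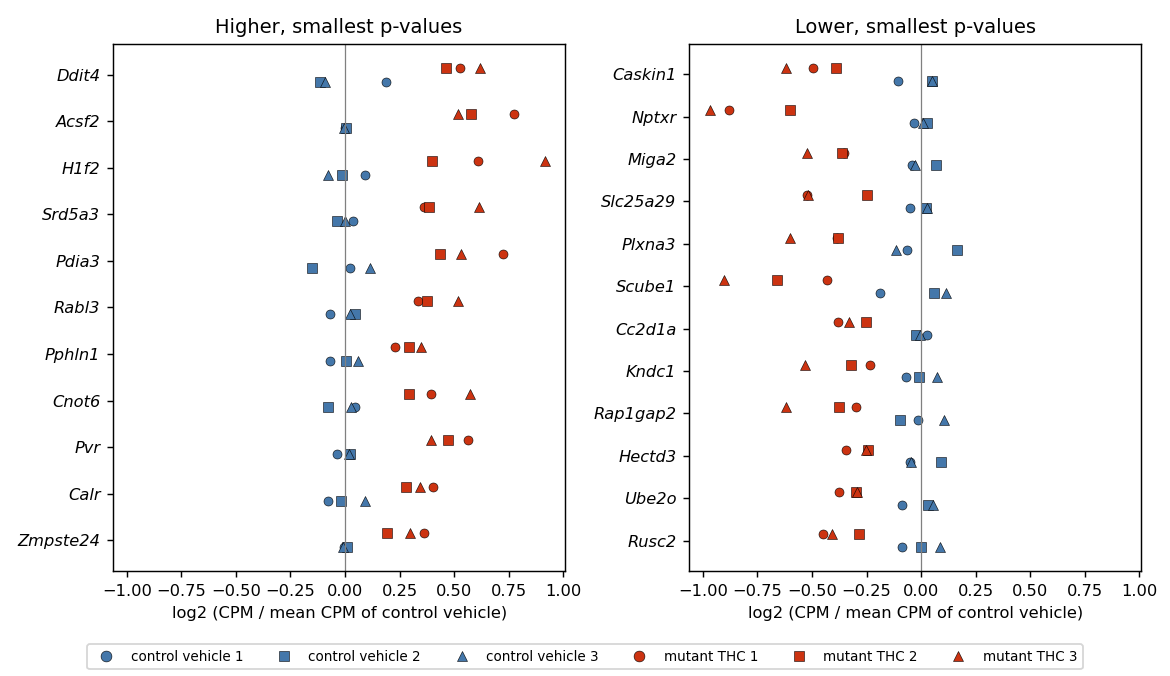
Log2 of CPM over the mean CPM of control vehicle for the 11 higher genes besides Prm1 (left) and the 12 lower genes (right) with the smallest p-values; each point is 1 of the 6 libraries compared, blue for control vehicle and red for mutant THC. The 2 colours do not overlap for any of these genes, which were chosen by p-value, and the widest gap on the right is that of Nptxr (log2 fold change -0.81).

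Leaving mutant THC 3 out, or keeping mutant THC 2 alone of its group, left all 23 of these genes on the same side of control vehicle. That side was set by the choice of genes, because no mutant THC library overlapped control vehicle for any of them. Nptxr was at -0.73 without mutant THC 3 and at -0.60 with mutant THC 2 alone, Caskin1 at -0.44 and -0.39, Ddit4 at 0.50 and 0.46, and Acsf2 at 0.68 and 0.58. Without mutant THC 3 the adjusted p of these genes was 0.586 by edgeR, and 628 genes were higher and 714 lower at an unadjusted p under 0.05. With mutant THC 2 alone, the single sample being assumed to vary like the other groups, the 1 gene past the threshold was Usp45, a deubiquitinase gene (-0.81, edgeR adjusted p = 0.0175). DESeq2 called all 23 genes.

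GC content moved with the direction of these genes. The median GC content of the 12 lower genes' transcripts was 58.2%, and 12 of 12 were above the 49.7% median of all genes tested, against 6 of 12 and 49.3% for the higher genes, Prm1 included. Over all genes split into 5 groups of nearly equal number by GC content, the share lower at an unadjusted p under 0.05 was 1.7% in the lowest group and 14.5% in the highest, while the share higher was 9.11% and 4.43%. The median log2 fold change was 0.06 in the lowest group and -0.06 in the highest. With a GC offset for each library, chosen after seeing the data, Nptxr was at -0.72, Caskin1 at -0.40, Ddit4 at 0.61 and Pdia3 at 0.55.

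Chaperones of the endoplasmic reticulum (ER), which fold proteins bound for the membrane and for secretion, were among the higher genes. Many are known targets of the unfolded protein response, whose factor ATF6 acts with NF-Y at the ER stress response element (ERSE), a CCAAT box and a CCACG box 9 bases apart. Promoters of 4 of these genes are printed from 250 bases before to 50 after the RefSeq start on GRCm38.p6, in the direction of transcription. They were printed because the members with the higher levels differ in whether the exact element is there. Capitals mark the boxes of the element, which read CGTGG and ATTGG where it lies on the opposite strand. Hspa5 is at chr2:34771840-34772139 (+ strand), Hsp90b1 at chr10:86705395-86705694 (- strand), Calr at chr8:84846882-84847181 (- strand) and Pdia3 at chr2:121413652-121413951 (+ strand).
Hspa5: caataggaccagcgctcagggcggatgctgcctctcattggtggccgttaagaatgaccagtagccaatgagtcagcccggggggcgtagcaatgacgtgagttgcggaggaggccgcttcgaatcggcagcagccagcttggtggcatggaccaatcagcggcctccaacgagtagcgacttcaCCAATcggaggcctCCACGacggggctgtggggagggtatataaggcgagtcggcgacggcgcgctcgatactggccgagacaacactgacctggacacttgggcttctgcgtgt
Hsp90b1: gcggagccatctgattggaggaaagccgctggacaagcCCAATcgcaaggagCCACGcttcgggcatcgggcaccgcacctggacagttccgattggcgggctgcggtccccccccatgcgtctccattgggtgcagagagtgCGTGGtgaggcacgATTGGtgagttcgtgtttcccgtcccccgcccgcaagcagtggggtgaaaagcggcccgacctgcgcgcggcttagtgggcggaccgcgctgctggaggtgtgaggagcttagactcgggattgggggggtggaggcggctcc
Calr: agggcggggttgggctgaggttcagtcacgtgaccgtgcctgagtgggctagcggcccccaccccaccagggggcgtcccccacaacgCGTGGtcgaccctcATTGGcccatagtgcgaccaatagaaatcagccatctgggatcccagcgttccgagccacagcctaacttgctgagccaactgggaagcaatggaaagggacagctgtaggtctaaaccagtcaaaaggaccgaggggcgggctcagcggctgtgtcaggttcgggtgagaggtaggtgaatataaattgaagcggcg
Pdia3: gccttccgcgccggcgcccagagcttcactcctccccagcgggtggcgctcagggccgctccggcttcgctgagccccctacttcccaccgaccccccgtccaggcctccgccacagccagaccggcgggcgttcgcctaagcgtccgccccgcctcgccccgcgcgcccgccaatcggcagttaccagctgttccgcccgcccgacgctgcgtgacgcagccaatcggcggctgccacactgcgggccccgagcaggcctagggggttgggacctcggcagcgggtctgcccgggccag

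Hsp90b1 held 2 exact matches of the full element, Hspa5 and Calr 1 each, and Pdia3 none in this window. The Pdia3 window does hold CCAAT, 9 bases and CCACA, which differs from the element in its last base. Both strands were searched for CCAAT, 9 bases of any kind and CCACG, and near matches were not counted. Of the 22 genes in the list of ER stress and chaperone genes, 20 had a promoter window and 6 held the element (Calr, Canx, Creld2, Hsp90b1, Hspa5 and Pdia6), against 0.137% of all 27025 genes with a window. A match is a description of the sequence and no measure of binding. Many genes of the list are known targets of the unfolded protein response. The share with the element thus comes with the choice of list and is no result of these libraries.

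In this list 10 of 22 tested genes were higher and 1 lower at an unadjusted p under 0.05, against 7.13% and 7.0% of all genes, and 0 passed the threshold. Mutant THC lay wholly above control vehicle for 11 members and wholly below for 2 (8.59% and 8.94% of all genes). The median log2 fold change was 0.17, against 0.01 over all genes. Pdia3, a disulfide isomerase that works with calreticulin on glycoproteins, was at 119, 105 and 127 CPM in control vehicle and 193, 158 and 169 CPM in mutant THC (0.57 ± 0.11, SE). Calr, which encodes the calcium-binding chaperone calreticulin, was at 307, 321 and 346 CPM and at 430, 394 and 412 CPM (0.34 ± 0.08). Neither gene's groups overlapped. For Pdia3, control THC (141 to 157 CPM) and mutant vehicle (140 to 184 CPM) also lay above control vehicle, while for Calr both groups overlapped it, at 330 to 387 CPM and 328 to 376 CPM.

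Hspa5, the gene for BiP, the main HSP70 chaperone of the ER, was at 270.1, 249.6 and 292 CPM in control vehicle and 396, 309 and 355 CPM in mutant THC (0.39 ± 0.11). Hsp90b1, which encodes the HSP90 of the ER, was at 353, 345 and 373 CPM and at 503, 395 and 493 CPM (0.38 ± 0.11). Mutant THC 2 was the lowest of its group for both, and still above control vehicle. The isomerase genes Pdia4 and Pdia6 had log2 fold changes of 0.32 ± 0.11 and 0.26 ± 0.07, Sdf2l1, an ER protein of the BiP cycle, 0.32 ± 0.09, and Manf, a secreted ER stress protein, 0.29 ± 0.10. Canx, the membrane-bound partner of calreticulin, was at 572, 544 and 596 CPM and 681, 602 and 640 CPM (0.17 ± 0.08).

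Other stress genes of the list gave other values. Atf4, the factor of the integrated stress response, was lower without overlap at 137 to 143 CPM in control vehicle and 119 to 130.2 CPM in mutant THC (-0.14 ± 0.07). Ddit3, the CHOP gene it induces, was at 14.9 to 16.0 CPM and 14.8 to 17.5 CPM, overlapping (0.08 ± 0.09), and Xbp1, a factor of the unfolded protein response, had a log2 fold change of 0.01 ± 0.09. Herpud1, an ER degradation gene, was at -0.10 ± 0.05, again without overlap. The cytosolic heat shock genes Hspa1a and Hspa1b were at -0.34 ± 0.14 and -0.18 ± 0.14, with the lowest level in mutant THC 3. Higher levels without overlap in this list were thus those of folding enzymes and chaperones inside the ER, not of Atf4, Ddit3 or Xbp1. These are mRNA levels, and the activity of the unfolded protein response was not tested.

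**Figure D4:**
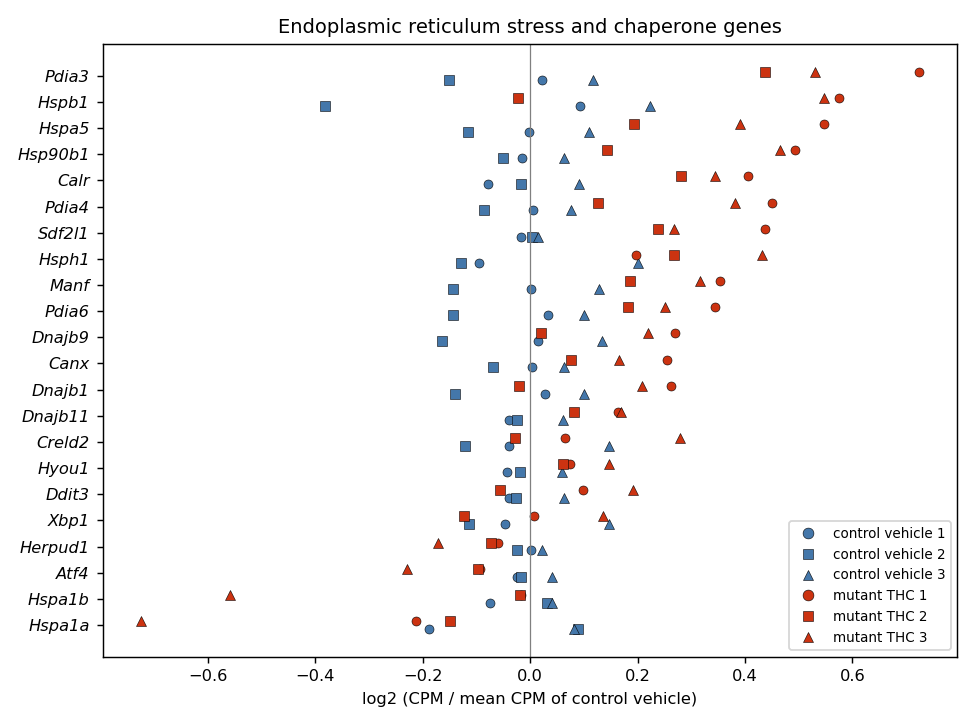
Log2 of CPM over the mean CPM of control vehicle for the 22 ER stress and chaperone genes, ordered by fold change; each point is 1 of the 6 libraries compared, blue for control vehicle and red for mutant THC. Pdia3 is at the top with no overlap, mutant THC 1 (circle) and 3 (triangle) usually lie right of mutant THC 2 (square), and Hspa1a and Hspa1b lie lowest in mutant THC 3.

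The count held without mutant THC 3, when 10 members were higher and 0 lower (median 0.16). It was 8 to 13 higher when each library was left out in turn. In those fits 559 to 1945 of all genes were higher, against 1127 with all libraries. With mutant THC 2 alone, the library with choroid plexus and striatal levels near those of control vehicle, the median was 0.07. The median was 0.24 without mutant THC 2 and 0.13 without control vehicle 2. The part of the choroid plexus, a secretory epithelium, in this list was not tested beyond those medians and a fit with covariates. In that fit, with the choroid plexus and striatal scores, 4 members were higher and the median was 0.07. Of all 15761 genes in it, 441 were higher.

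Genes induced by glucocorticoid hormones were partly higher. Of 22 tested, 7 were higher and 2 lower at an unadjusted p under 0.05, with a median of 0.17, and 6 and 2 had groups that did not overlap. Over all genes those shares were 7.13% and 7.0% for the unadjusted p and 8.59% and 8.94% for groups that did not overlap, so the 2 lower members are near the share of all genes. The count of higher members was 4 without control vehicle 3. Sgk1, a kinase gene that the glucocorticoid receptor induces, was at 98.7, 90.0 and 81.9 CPM in control vehicle and 214, 109 and 223 CPM in mutant THC (1.01 ± 0.24, SE, edgeR adjusted p = 0.301). Mutant THC 2 was far nearer to control vehicle than the other 2 libraries, and with it alone the log2 fold change was 0.28. Control THC had 146 to 191 CPM of Sgk1 and mutant vehicle 148 to 215 CPM. The 2 high mutant THC libraries are those with high choroid plexus levels. Control THC 1 and 3, whose choroid plexus genes summed to 404 and 397 CPM, held 191 and 146 CPM of Sgk1. With the choroid plexus score as a covariate the list had 5 higher and 0 lower members and a median of 0.135, and with both scores 5 and 0 with a median of 0.093.

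The metallothionein genes Mt1 and Mt2, which bind zinc and copper, were higher without overlap: Mt2 was at 43.9, 36.0 and 36.8 CPM in control vehicle and 56, 48.4 and 45.6 CPM in mutant THC (0.36 ± 0.12), and Mt1 was at 0.25 ± 0.09. Pdk4, which holds back glucose oxidation in mitochondria, was at 9.19 to 9.21 CPM in control vehicle and 14.9, 9.38 and 13.5 CPM in mutant THC (0.45 ± 0.18), so its fold came mainly from mutant THC 1 and 3. Fkbp5, the receptor's co-chaperone, overlapped (0.15 ± 0.12), as did Tsc22d3 (0.04 ± 0.14) and Per1 (0.06 ± 0.09), 3 of the best known targets. Zbtb16, also a target, was lower without overlap at 58.0, 65.9 and 65.9 CPM and 48.2, 55.9 and 26.6 CPM (-0.54 ± 0.23). The receptor gene Nr3c1 was at 0.03 ± 0.07. Without mutant THC 3 the list had 5 higher and 0 lower members and a median of 0.11, and with mutant THC 2 alone 1 and 1 with a median of 0.02.

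Of the genes closest to the study's question, none passed the threshold. Ptgs2, the COX-2 gene, was at 26.4, 33.4 and 32.9 CPM in control vehicle and 24.0, 36.1 and 17.0 CPM in mutant THC (-0.27 ± 0.25, SE, edgeR adjusted p = 0.629), with both the highest and the lowest value of the 6 in mutant THC. The prostaglandin E synthase gene Ptges was at 3.18 to 4.21 CPM and 3.21 to 3.88 CPM (-0.12 ± 0.14). In the prostanoid pathway 0 of 25 tested genes had an unadjusted p under 0.05, and the median was 0.07. The sign of that median turned when libraries were left out: it was -0.11 without mutant THC 1, -0.0043 without control vehicle 3 and -0.043 with mutant THC 2 alone. Ltc4s, the leukotriene C4 synthase gene, was at 1.68 to 1.71 CPM in control vehicle and 6.01, 1.39 and 3.12 CPM in mutant THC (1.05 ± 0.48), and with mutant THC 2 alone it was at -0.28.

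The NF-kB subunit genes overlapped between the groups. Nfkb1, for the p50 precursor, was at 25.3, 23.2 and 22.8 CPM in control vehicle and 24.5, 23.3 and 25.4 CPM in mutant THC (0.04 ± 0.06), and Rela, for p65, was at 13.0 to 13.7 CPM and 12.5 to 13.6 CPM (-0.03 ± 0.07). Nfkbia, the inhibitor IkB-alpha and itself a target of NF-kB and of glucocorticoids, was at 32.8, 27.2 and 28.3 CPM and 42.5, 32.2 and 40.2 CPM (0.38 ± 0.11, edgeR adjusted p = 0.31). The groups overlapped because mutant THC 2 lay below control vehicle 1. Of the 18 tested genes of NF-kB subunits and inhibitors, 2 were wholly above control vehicle and 2 wholly below, against 8.59% and 8.94% of all genes. At an unadjusted p under 0.05, 2 were higher and 0 lower, against 7.13% and 7.0% of all genes. The members that stood apart are thus near the share of all genes. Tab2, an adaptor that leads from receptors to the kinase TAK1, was higher without overlap at 48.9 to 54.1 CPM and 59.4 to 62.1 CPM (0.27 ± 0.07), and control THC was at 59.0 to 62.1 CPM. Rel, for the subunit c-Rel, was the other gene wholly above (0.35 ± 0.21), and the inhibitor genes Nfkbib and Nfkbie were wholly below (-0.16 ± 0.08 and -0.22 ± 0.16).

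Inflammatory targets of NF-kB had a median of -0.19 over 17 tested genes, with 0 higher and 2 lower at an unadjusted p under 0.05. Over all genes 7.13% were higher and 7.0% lower, so the 2 lower members are near that share. Il1a, the interleukin 1 alpha gene, was at 0.948, 0.806 and 0.827 CPM in control vehicle and 0.601, 0.739 and 0.542 CPM in mutant THC (-0.46 ± 0.20), and Irf1, an interferon regulatory factor gene, at 7.73 to 8.52 CPM and 5.37 to 7.67 CPM (-0.27 ± 0.13). Both had groups that did not overlap. Cd40, a receptor of immune activation, was at -0.87 ± 0.31 with overlap, and Vcam1, an endothelial adhesion gene, was at 0.36 ± 0.21. The median stayed below 0, from -0.26 without mutant THC 1 to -0.11 without control vehicle 1. It was -0.13 without mutant THC 3 and -0.16 with mutant THC 2 alone. As covariates, the choroid plexus score gave a median of -0.11, the striatal score -0.094 and both scores -0.067.

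Among the cannabinoid genes, Cnr1, which encodes the CB1 receptor, was at 336, 313 and 355 CPM in control vehicle and 346, 332 and 687 CPM in mutant THC (0.44 ± 0.22, SE, edgeR adjusted p = 0.384). The difference rested on mutant THC 3, the library with high striatal levels, and was 0.02 without it. Abhd6, an enzyme that breaks down the endocannabinoid 2-AG, was lower without overlap at 54.3, 58.3 and 54.5 CPM and 42.6, 48 and 35.4 CPM (-0.41 ± 0.11), with 46.8 to 47.6 CPM in control THC. Abhd4, of the anandamide route, was at 0.17 ± 0.06. Of the 15 tested genes of the system, 1 was higher and 1 lower at an unadjusted p under 0.05. Over all genes 7.13% were higher and 7.0% lower, so these counts are near that share. Srr, which encodes serine racemase, was at 86.8, 91.5 and 95.3 CPM and 89.5, 103 and 98.9 CPM (0.09 ± 0.07), overlapping, and of the 12 genes of D-serine and glycine handling 1 was higher, the amino acid transporter gene Slc1a5 at 0.58 ± 0.20. Of 20 DISC1 partners 1 was lower, Map1a, a microtubule protein gene, at -0.45 ± 0.16. The D-serine and DISC1 counts are also near the shares of all genes.

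Glial genes gave no common direction. Gfap, the intermediate filament gene of astrocytes, was at 471, 443 and 414 CPM in control vehicle and 469, 432 and 285 CPM in mutant THC (-0.16 ± 0.15), with the low value in mutant THC 3, and 0.03 without it. Of 31 reactive astrocyte genes 3 were higher and 0 lower at an unadjusted p under 0.05 (median 0.02), against 7.13% and 7.0% of all genes. Without mutant THC 2, 6 were higher and 1 lower, against 1945 and 1672 of all 15940 genes. The reactive median was 0.09 with mutant THC 2 alone. Of 22 homeostatic astrocyte genes 1 was higher and 1 lower (median -0.04). Fgfr3, a growth factor receptor gene of astrocytes, was lower without overlap at 140.1, 123 and 117 CPM and 117, 89.4 and 90.5 CPM (-0.36 ± 0.11); the closest pair were control vehicle 3 and mutant THC 1. Of 18 microglial genes 1 was higher, Siglech at 11.8 to 14.4 CPM and 15.3 to 15.7 CPM (0.28 ± 0.11). Myelin genes of oligodendrocytes had a median of 0.21 that became 0.10 without mutant THC 3 and -0.16 with mutant THC 2 alone.

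Complement genes were higher for 4 of 19 and lower for 0 at an unadjusted p under 0.05, with a median of 0.13, against 7.13% and 7.0% of all genes. The count of higher members was 2 without control vehicle 2 and 6 without control vehicle 1. C1rl, a C1r-like protease gene, was at 0.369, 0.269 and 0.336 CPM in control vehicle and 1.11, 0.767 and 0.852 CPM in mutant THC (1.48 ± 0.27, SE, edgeR adjusted p = 0.301), and it was 1.23 with mutant THC 2 alone. Control THC had 0.505 to 0.817 CPM and mutant vehicle 0.893 to 1.17 CPM, all above control vehicle. C1qa, a chain of the C1q complex that tags synapses and debris, was at 48.4 to 52.7 CPM and 55 to 61.6 CPM (0.21 ± 0.07). Cd59a, an inhibitor of the terminal complex, was at 4.32, 2.87 and 4.19 CPM and 17.8, 3.41 and 14.0 CPM, with the 2 high values in the mutant THC libraries whose choroid plexus levels were high. The median was 0.07 without mutant THC 1, and 0.21 without control vehicle 1. Of 27 interferon-induced genes 3 were higher and 2 lower, near the 7.13% and 7.0% of all genes. Their median was 0.06, and 0.04 with mutant THC 2 alone. One of the 2 lower was Ifitm1, an antiviral membrane protein gene, at 1.45 to 1.78 CPM and 1.08 to 1.22 CPM (-0.48 ± 0.16), against 2.00 to 2.70 CPM in mutant vehicle.

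Among neuronal genes, CA1 markers had a median of -0.24 over 10 genes, 9 of them below 0. At an unadjusted p under 0.05, 0 were higher and 1 lower, near the 7.0% of all genes lower. Their median was -0.13 without mutant THC 3 and -0.16 with mutant THC 2 alone. Htr1a, a serotonin receptor gene, was at 41.9 to 46.6 CPM in control vehicle and 37.9, 40.1 and 24.0 CPM in mutant THC (-0.36 ± 0.16), without overlap. In the CA1 list 2 of 10 genes lay wholly below control vehicle, against 8.94% of all genes. Of 26 genes of glutamate receptors and the postsynaptic scaffold, 0 were higher and 2 lower (median -0.10), near the 7.0% of all genes lower. The median was -0.20 with 7 lower without mutant THC 2, -0.019 without mutant THC 1, and turned to 0.041 with mutant THC 2 alone. Without mutant THC 2, 1672 of all 15940 genes were lower. One of the 2 was Grm2, a presynaptic metabotropic receptor gene, at 40.5, 42.1 and 42.4 CPM and 31.8, 37.7 and 15.9 CPM (-0.55 ± 0.25), which was -0.14 with mutant THC 2 alone. Of the 22 immediate early genes, which neurons switch on with activity, 1 was higher and 3 lower, against 7.13% and 7.0% of all genes. Their median was -0.08, also with mutant THC 2 alone. The count of lower members was 5 without mutant THC 2, and the median turned to 0.0028 without control vehicle 3. Npas4 was at 7.56, 10.3 and 9.62 CPM in control vehicle and 4.90, 4.60 and 7.49 CPM in mutant THC (-0.69 ± 0.20, edgeR adjusted p = 0.31), and Fos at 20.6 to 23.6 CPM and 13.2 to 18.3 CPM (-0.51 ± 0.18). Control THC had 4.91 to 6.37 CPM of Npas4 and 12.6 to 15.9 CPM of Fos. With mutant THC 2 alone Npas4 was at -0.99 and Fos at -0.59. Tbr1, a cortical glutamatergic neuron factor, was at 19.6 to 26.5 CPM and 12.3 to 16.8 CPM (-0.55 ± 0.16). Of the 12 neocortex markers, to which it belongs, 1 was higher and 3 lower, against 7.13% and 7.0% of all genes. Their log2 fold changes ran from -0.58 to 2.73, with 3 above 0 and 9 below. The score of that list was 4.07, 3.82 and 4.15 in control vehicle and 3.98, 3.54 and 4.23 in mutant THC, so the groups overlapped.

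Genes of blood and vessels lay above control vehicle in part. All 12 tested blood genes had a positive log2 fold change, 6 higher and 0 lower at an unadjusted p under 0.05, with a median of 0.71, against 7.13% of all genes higher. Hba-a1, a haemoglobin alpha gene, was at 81.4, 77.4 and 76.2 CPM in control vehicle and 134, 103 and 137 CPM in mutant THC (0.67 ± 0.16, SE, edgeR adjusted p = 0.301). Alas2, the haem synthesis enzyme of red cells, was at 6.74, 6.39 and 6.02 CPM and 12, 9.29 and 9.71 CPM (0.69 ± 0.19), and the summed list was 324 to 458 CPM against 541 to 695 CPM. Blood genes were also above control vehicle in control THC 1 and 3 (576 and 606 CPM) and in all mutant vehicle libraries (472 to 834 CPM), and how much blood remained in the tissue was not given in the labels. The count was 0 higher with mutant THC 2 alone, at a median of 0.42, and 3 without mutant THC 1. The haemoglobin genes have near-identical copies, so their single levels are uncertain.

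Of 18 endothelial genes 3 were higher and 0 lower (median 0.20), against 7.13% of all genes higher, and 4 were wholly above control vehicle, against 8.59%. Pecam1, an adhesion gene of vessel walls, was at 16.8, 16.3 and 16.8 CPM in control vehicle and 20.4, 20.5 and 18.0 CPM in mutant THC (0.24 ± 0.07), and was 0.30 with mutant THC 2 alone. Mutant vehicle was at 15.7 to 17.3 CPM and control THC at 17.6 to 19.3 CPM. Eng and Tek, receptor genes of endothelium, were at 0.27 ± 0.11 and 0.20 ± 0.09, also without overlap. The endothelial count was 1 without control vehicle 1 or 2, 2 without control vehicle 3 and 5 without mutant vehicle 1. Ependymal and motile cilium genes, which belong to cells lining the ventricle, were higher for 6 of 18 with a median of 0.96, and 10 had groups that did not overlap, against the same shares of all genes. Their count was 0 without mutant THC 1 or control vehicle 2, and their median was 0.55 with mutant THC 2 alone.

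**Figure D5:**
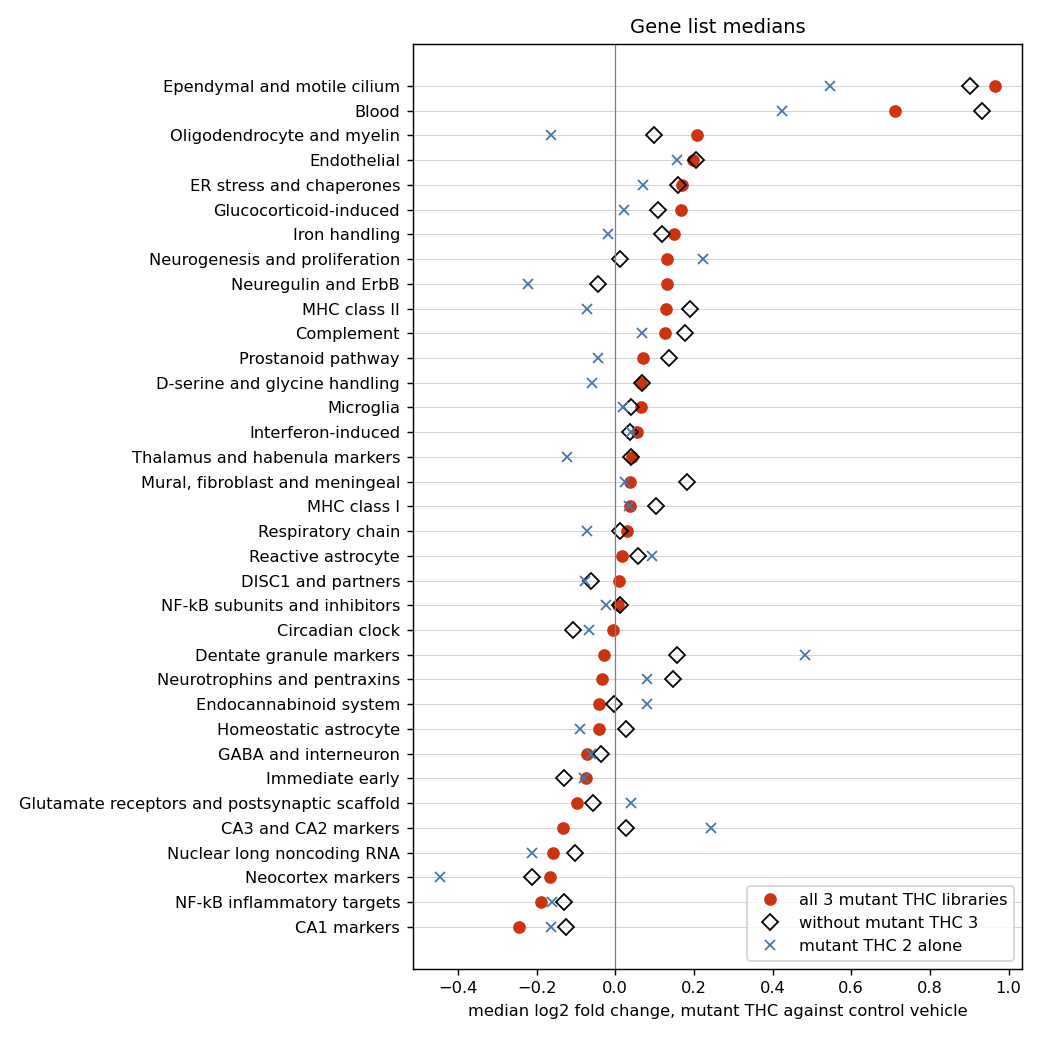
Median log2 fold change of mutant THC against control vehicle over the tested members of each gene list, with all 3 mutant THC libraries (filled circle), without mutant THC 3 (diamond) and with mutant THC 2 alone (cross); the choroid plexus and striatal lists are left out as they exceed the axis. Among the filled circles, ependymal and blood genes lie furthest right at 0.96 and 0.71 and CA1 markers furthest left at -0.24, and the crosses of myelin genes, dentate markers and neocortex markers (-0.44) lie away from their circles.

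The striatal and choroid plexus lists had the largest medians, 3.36 and 4.29. At an unadjusted p under 0.05, 19 of 21 and 20 of 20 genes were higher, against 7.13% of all genes. Only 3 and 7 of them lay wholly above control vehicle, against 8.59% of all genes. The counts were 0 of 21 and 1 of 20 by limma-voom and 6 of 8 and 20 of 20 by DESeq2. With only the 6 libraries they were 6 of 18 and 18 of 19. The striatal count was 0 without mutant THC 3, at a median of 0.04, and 7 without any 1 of the control vehicle libraries. The choroid plexus count was 0 without mutant THC 1, 15 without mutant THC 3, and 4, 0 and 6 when control vehicle 1, 2 and 3 in turn were left out. Its median was 0.02 with mutant THC 2 alone. Of the remaining lists, 28 respiratory chain genes had a median of 0.03 with 2 higher and 0 lower, against 7.13% and 7.0% of all genes. Without mutant THC 2, 7 of them were higher, and so were 1945 of all 15940 genes. Uqcrq, a subunit of complex III, was at 45.9, 40.4 and 49.3 CPM in control vehicle and 66.2, 50.9 and 63 CPM in mutant THC (0.41 ± 0.11). At an unadjusted p under 0.05, iron genes were higher for 4 of 15, against 7.13% of all genes, and circadian clock genes for 1 of 18 with 2 lower. The iron count was 1 without mutant THC 1 or control vehicle 2 and with the choroid plexus score, 2 without control vehicle 3 and 7 without mutant THC 2. In the same order 1107, 559, 413, 647 and 1945 of all genes were higher, against 1127 with all libraries. The iron median was 0.15, and -0.018 with mutant THC 2 alone. All 11 tested nuclear long noncoding RNAs had a negative log2 fold change (median -0.16), with 1 at an unadjusted p under 0.05, Mirg at -0.43 ± 0.19, whose groups overlapped.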

How the data were processed

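The deposited table gives expected counts for each gene and library, with no scaling by depth. The submitters' processing notes list RSEM 1.2.21, Bowtie2 2.2.2, edgeR 3.10.2, CASAVA 1.8.4, FastQC and build mm10, with no role or order. Whether counting used strand is not given in these sources, so levels of genes that overlap an antisense gene are uncertain. The expected counts were rounded, filtered with filterByExpr over the 4 groups (15802 of 23382 rows kept) and scaled with TMM. The test was edgeR's quasi-likelihood F test (edgeR 4.0.16, robust, R 4.3.3) on all 12 libraries in 1 model of 4 group means with 8 residual degrees of freedom. P-values were adjusted by Benjamini-Hochberg over all genes tested, with 0.05 as threshold, and SE was taken from the F statistic. CPM are counts scaled to 1e+06 with TMM.

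The comparison and the 37 gene lists were chosen with earlier results of these data known. No test was made over a list. Named genes were those past the threshold at 1 CPM or more, filled up to 12 in each direction by smallest p-value. Also named were Disc1, Srr, Cnr1, Gfap, Ptgs2, Ptges, Nfkb1, Rela and Nfkbia, up to 3 members of each list by smallest p-value, and the leading genes without mutant THC 3. Further members were chosen after their values were seen. In the lists, 2 symbols had no match.

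Alternatives, 25 in all, were DESeq2 1.42.0, limma-voom (limma 3.58.1), other scaling and filters, only the 6 libraries, each of the 12 libraries left out, choroid plexus and striatal scores as covariates, and 2 chosen after seeing the data: a GC content offset, and mutant THC 1 and 3 left out together. Library pairs differed by a chi-square per gene of at least 11.7, so no library was counted as a repeat. The code was tested on simulated data. Coordinates and promoters are those of GRCm38.p6 from RefSeq, and 98.6% of the tested genes had a GC content. Depth sets the precision of low genes.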

Additional observations from a re-analysis of the deposited data

How the results depend on the processing

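One gene, Prm1, was called by edgeR with all libraries, and 0 or 1 when each library was left out. DESeq2 called 158, limma-voom 0 (1990 at an unadjusted p under 0.05), the 6 libraries alone 0 (1572), and the fits with the choroid plexus score 0 (1067), the striatal score 0 (1119) or both 0 (1072). The count at an unadjusted p under 0.05 was 2233 with all libraries, 943 with mutant THC 2 alone, 3617 and 1342 without mutant THC 2 and 3, and 1252 and 1433 without control vehicle 2 and 3. List counts under other settings are to be read beside these counts over all genes. The causes of these differences were not tested. Other scaling, no filter, a filter at 1 CPM and the GC offset kept the Prm1 call. Of 3415 values of the 138 named genes under other settings, 3317 kept direction and side of the threshold, 32 passed under DESeq2 only, 15 lost the call (all Prm1) and 51 in 25 genes changed sign. None of the 51 belonged to the 23 leading genes, which were chosen by p-value on these libraries and whose groups did not overlap.

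Log2 fold changes that changed sign with mutant THC 1 and 3 left out together, so with 1 library in that group, were Disc1 0.43, Cnr1 -0.0099, Ptgs2 0.23, Nfkb1 -0.026, Cnrip1 0.035, Ltc4s -0.28, Abcc4 -0.039, Cd59a -0.15, Fbln5 -0.16, Aldh1l1 -0.012, Igf2 -0.17, Mog -0.013, Ugt8a -0.00998, Dsp 0.013, Foxp2 -0.82, Tac1 -0.44, Sh3rf2 -0.039, Kcnj13 -0.61, Ndufa1 -0.066 and Hbegf -0.17. With both tissue scores they were Disc1 0.32, Gfap 0.017, Ptgs2 0.077, Nfkb1 -0.011, Ltc4s -0.097, Ugt8a -0.043, Mki67 -0.051, Necab2 -0.014, Foxp2 -0.44, Ndufa1 -0.0098 and Hbegf -0.12. With the striatal score they were Disc1 0.24, Gfap 0.039, Mki67 -0.0505, Necab2 -0.048, Foxp2 -0.38 and Hbegf -0.076, and with the choroid plexus score Disc1 0.19, Ltc4s -0.12 and Rgs5 -0.00902. The GC offset gave Disc1 0.069 and Rela 0.054, and upper quartile scaling gave Disc1 0.0045. Leaving out each library gave ranges of -0.29 to 0.24 for Disc1, -0.30 to 0.025 for Gfap, -0.026 to 0.59 for Necab2, -0.20 to 3.28 for Foxp2, -0.32 to 3.27 for Tac1 and -0.064 to 0.51 for Hbegf. No paired analysis was possible because the numbers in the labels do not recur between the groups.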
